A study of Homo sapiens with 16 samples.

Results

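The cytosolic ribosomal protein genes code for the proteins of the 80S ribosome, and their mRNA levels were compared here between HepG2 cells given siRNA against HCF-1 and HepG2 cells given control siRNA. HepG2 is an established human liver cancer cell line. The members were taken by name: protein-coding genes of the deposited table whose symbol starts with RPL or RPS followed by a number, with RPSA and RPLP0, RPLP1 and RPLP2, and without the S6 kinases, RPS19BP1 and RPS27L. This gave 88 of the 56969 genes in the table, of which 77 are core members of the human ribosome, 7 are paralogs or retrocopies, 3 are readthrough genes that join a ribosomal protein gene to its neighbour, and 1 is a duplicated gene. Each group had 8 libraries that the labels call biological replicates. Both groups were unmodified HepG2 cells in serum-containing medium, reverse transfected with siRNA, transfected again 2 days later and harvested 2 days after that; they differed in the target of the siRNA. Libraries were made from poly(A)-selected mRNA with a stranded kit. All cells are from 1 cancer line, and no siRNA sequence was used here.

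As background, a ribosome is built from ribosomal RNA and a fixed set of proteins, 1 copy of nearly each, so that cells make these proteins in matched amounts. Their mRNAs are among the most abundant in dividing cells and nearly all begin with a 5′ terminal oligopyrimidine tract (TOP), a C followed by a run of pyrimidines, through which LARP1 and mTOR control their translation. HCF-1, the product of HCFC1, is a chromatin-associated coregulator that binds DNA only through partner factors such as THAP11, ZNF143, GABPA, E2F proteins and YY1.

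The libraries held 21030830 to 32820459 reads in genes in the control group and 25098840 to 43186890 after HCF-1 siRNA. HCFC1, the targeted gene, ranged from 4851 to 6878 normalized counts (median 5548) in the control libraries and from 3112 to 4171 (median 3654) after HCF-1 siRNA. The groups did not overlap, and the mean was 65.4% of the control mean (two-sided exact permutation test over libraries, p = 0.000155, the smallest it can give with 12870 arrangements of the labels). Markers of the labelled cell type were present: 10 liver genes such as ALB and APOB summed to 755882 to 818788 normalized counts in control libraries and 894526 to 1064080 after HCF-1 siRNA, with no overlap. The 10 did not all move together. At an adjusted p under 0.05, 7 were called higher (18.2% of all genes) and 1 lower (18.3%). The lower 1 was FGB, with a log2 fold change of -0.50. Markers of blood and endothelial cells were low in both groups, summing to at most 122 and at most 160 normalized counts. Fibroblast genes summed to 343 to 919. The highest of them was PDGFRB, with means of 454 in the control group and 600 after HCF-1 siRNA. The values are shares of a library, so a change in total mRNA per cell would not be seen in them. Libraries also differed in how their levels followed the GC content of transcripts, and these values are given with the GC results further on.

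Of the 88 members, 86 reached a mean of 10 normalized counts and were tested. RPL39L and RPL10L, genes known from testis, did not. At an adjusted p under 0.05, 35 of 86 members were called (40.7%), against 36.6% of all 16081 genes tested. The family was therefore called about as often as genes at large. Among genes with a mean of 1000 or more, where the test is most sensitive, 32 of 77 members were called (41.6%) against 47.9% of all such genes. By direction, 24 members were called higher after HCF-1 siRNA (27.9%, against 18.2% of all genes) and 11 lower (12.8%, against 18.3%). The median log2 fold change was 0.043 over the members and 0.0064 over all genes tested. This split depends on how libraries are scaled to each other: 68.6% of the called members were higher as deposited, 89.5% (34 higher, 4 lower) with upper-quartile scaling and 54.3% (19 higher, 16 lower) with total-count scaling. In both of these no member called as deposited was called in the opposite direction.

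The changes were small. Over the 76 core members with a matched transcript, the median size of the log2 fold change was 0.093, against 0.15 over all tested genes with a mean of 1000 or more, and 100% of them changed by less than 1.5-fold against 97.3%. The summed share of all reads taken by the members was 5.83% to 6.49% in the control libraries and 6.03% to 6.35% after HCF-1 siRNA, the second range lying within the first. The groups did not overlap for 7 of 86 members (8.14%, against 9.82% of all genes). RPL4, RPL5, RPL11, RPL27A and RPS7 were higher in every HCF-1 siRNA library than in any control library, 5 members against 4.59% of all genes. RPL28 and RPL7L1 were lower in every one, 2 members against 5.23% of all genes.

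**Figure D1:**
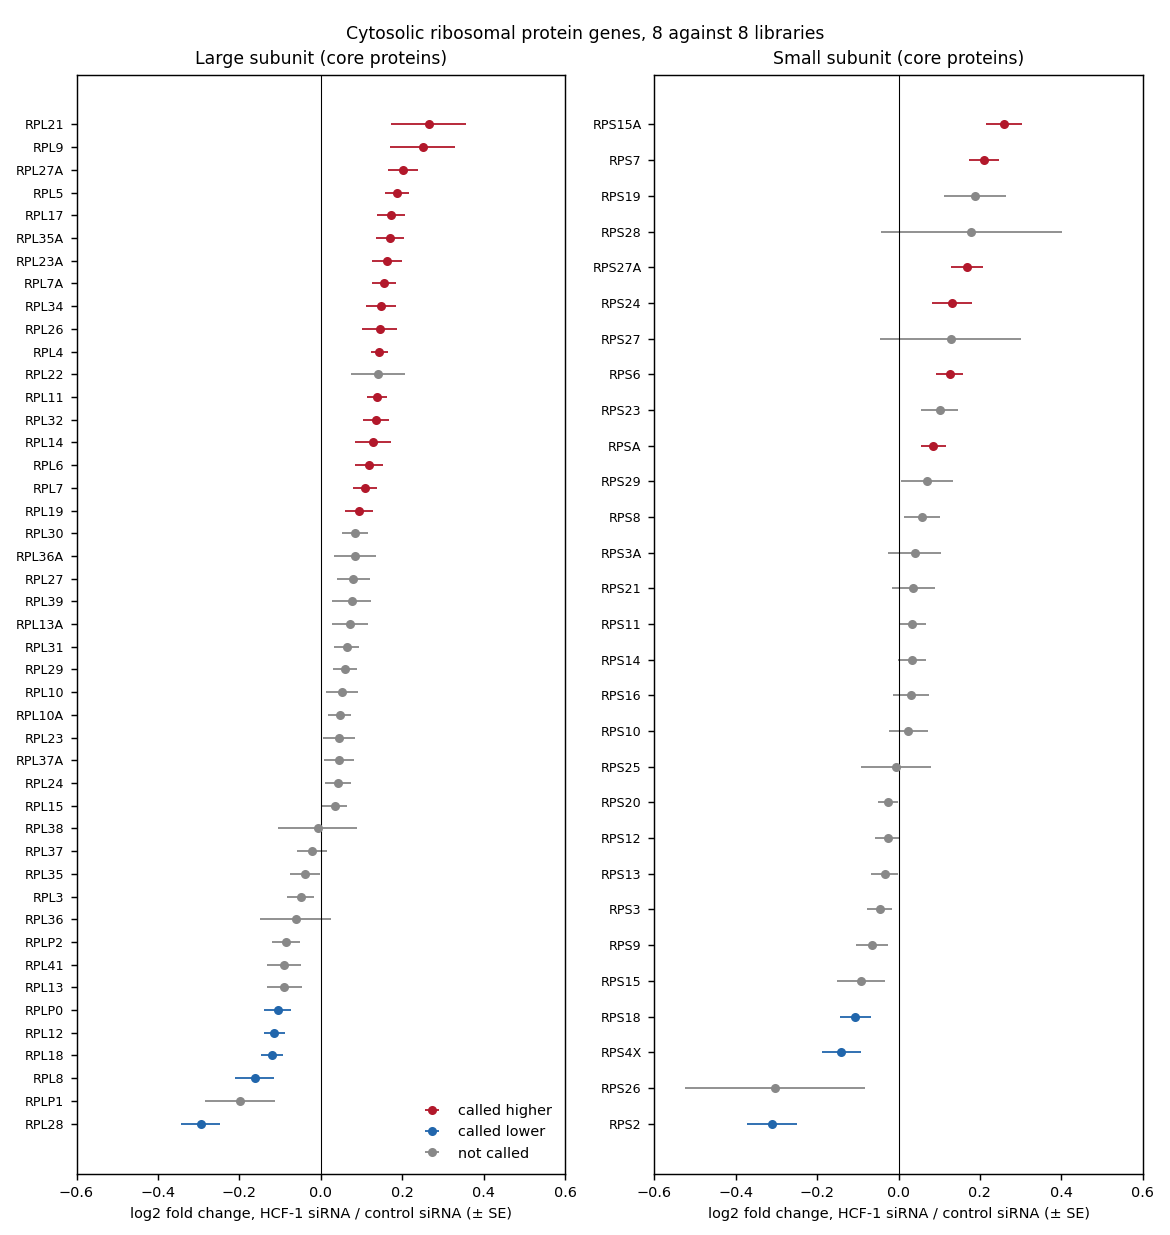
Log2 fold change (HCF-1 siRNA over control siRNA, horizontal axis) with its standard error for core members of the large and the small subunit that are reported by name, ordered by value and coloured by call. The values run from -0.31 (RPS2) to 0.26 (RPL21), and the members with wide bars, such as RPS26, RPS28 and RPS27, were not called.

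The subunits were read side by side, against 18.2% of all genes called higher and 18.3% lower, or 23.5% and 24.4% of genes with a mean of 1000 or more. Of 46 large subunit core members, 17 were called higher and 5 lower, with a median log2 fold change of 0.068. Of 31 small subunit core members, 6 were called higher and 4 lower, with a median of 0.033. In each library the median deviation of the large subunit minus that of the small subunit was -0.044 to 0.038 on the log2 scale in the control group and -0.0055 to 0.074 after HCF-1 siRNA, so the groups overlapped and no test of the subunits was made. Without HCF-1 siRNA replicate 3 the count of lower large subunit members rose from 5 to 8, and without replicate 5 or replicate 8 of the same group the count of lower small subunit members fell from 4 to 2.

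Promoter sequence could be read for 69 of the 88 members, 62 of them core, from RefSeq (GRCh38.p14), which gives 250 bases before and 50 after each gene's annotated start. A run of at least 4 pyrimidines that starts with C at the annotated start was found in 47 of 62 core members (75.8%), against 6.84% of the 27305 genes in that table. The following windows hold the 25 bases before and the first 25 of the transcript for members called lower (RPL28, RPL18, RPL12, RPS18), members called higher (RPL27A, RPL11, RPL35A, RPL7A) and RPL7L1, a paralog called lower. They are shown because the start of the mRNA is the feature the core family shares; capitals mark the pyrimidine run from the start site.
RPL28: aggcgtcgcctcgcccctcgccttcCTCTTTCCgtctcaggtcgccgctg
RPL18: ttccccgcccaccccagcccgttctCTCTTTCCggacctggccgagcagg
RPL12: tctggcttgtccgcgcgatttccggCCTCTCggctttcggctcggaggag
RPS18: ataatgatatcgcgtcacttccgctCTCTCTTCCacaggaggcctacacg
RPL27A: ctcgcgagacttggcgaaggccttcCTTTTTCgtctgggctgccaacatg
RPL11: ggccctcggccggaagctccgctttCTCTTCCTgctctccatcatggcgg
RPL35A: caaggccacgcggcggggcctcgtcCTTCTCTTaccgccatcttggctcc
RPL7A: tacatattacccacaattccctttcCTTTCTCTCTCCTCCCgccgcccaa
RPL7L1: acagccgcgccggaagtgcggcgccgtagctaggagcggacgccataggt

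These windows are chr19:55385907-55385956 on the plus strand (RPL28), chr19:48619154-48619203 on the minus strand (RPL18), chr9:127451382-127451431 on the minus strand (RPL12), chr6:33272050-33272099 on the plus strand (RPS18), chr11:8682767-8682816 on the plus strand (RPL27A), chr1:23691781-23691830 on the plus strand (RPL11), chr3:197950165-197950214 on the plus strand (RPL35A), chr9:133348193-133348242 on the plus strand (RPL7A) and chr6:42879591-42879640 on the plus strand (RPL7L1). Members called higher and members called lower both carry the run: it was present in 12 of 19 core members called higher, 5 of 6 called lower and 30 of 37 not called. RPL7L1 has no such run at its annotated start. Motifs of factors named with HCF-1 were searched on both strands of the whole promoter window. GATGGCG, the core of the YY1 motif, was in 17 of 62 core members (27.4%, against 5.11% of all promoters), in 5 of 19 called higher and 2 of 6 called lower. CCGGAAG, a motif of ETS factors such as GABPA, was in 22 of 62 (35.5%, against 12.2%), in 8 of 19 called higher and 3 of 6 called lower. TATAAA was in 5 of 62 (8.06%, against 13.99%). ACTACAA, the start of the motif known for THAP11 and ZNF143, was in 3 of 62 (4.84%, against 3.43%), here with 15 bases on either side and the match in capitals.
RPL35: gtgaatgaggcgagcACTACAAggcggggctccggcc
RPS26: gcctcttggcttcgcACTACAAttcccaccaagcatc
RPL4: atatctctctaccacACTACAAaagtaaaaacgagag

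These matches lie at chr9:124862099-124862135 (RPL35, printed on the minus strand, which is the gene's), chr12:56041730-56041766 (RPS26, plus strand, the gene's) and chr15:66504934-66504970 (RPL4, printed on the plus strand, opposite to the gene). RPL4 was called higher; RPL35 and RPS26 were not called. A match describes these letters and shows neither binding nor its absence.

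The largest called decreases among core members were in RPS2 and RPL28. RPS2, which sits where mRNA enters the small subunit, ranged from 62134 to 76115 normalized counts (median 66048) in the control libraries and from 46021 to 62233 (median 55248) after HCF-1 siRNA. It fell by 0.31 ± 0.061 on the log2 scale (SE, adjusted p = 0.000679), with 7 of 8 HCF-1 siRNA libraries below the lowest control library. RPL28, a large subunit protein whose promoter window is printed above, ranged from 13394 to 16057 normalized counts (median 14450.3) in the control libraries and from 10514 to 13146 (median 11820.4) after HCF-1 siRNA. It fell by 0.30 ± 0.047 on the log2 scale (SE, adjusted p = 0.000105), and the groups did not overlap. Both also stayed called lower after each GC adjustment described further on.

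Smaller decreases were called in other core members, 6 of which are given here. RPL8, which lies close to the peptidyl transferase centre, ranged from 27428 to 34183 normalized counts (median 30976) in the control libraries and from 25631 to 31360.2 (median 27305) after HCF-1 siRNA. It fell by 0.16 ± 0.047 on the log2 scale (SE, adjusted p = 0.0123), with 5 of 8 libraries below the control range. RPS4X, the X-linked form of its protein, ranged from 18262 to 24561 normalized counts (median 20802) in the control libraries and from 17559.9 to 20173 (median 18839) after HCF-1 siRNA. It fell by 0.14 ± 0.048 on the log2 scale (SE, adjusted p = 0.0276); the adjusted p was 0.0518 without HCF-1 siRNA replicate 5 and 0.055 without replicate 8. RPL18, a large subunit protein, ranged from 16416 to 17699 normalized counts (median 17268) in the control libraries and from 14966 to 16647 (median 15871) after HCF-1 siRNA. It fell by 0.12 ± 0.027 on the log2 scale (SE, adjusted p = 0.00225), with 7 of 8 libraries below the control range. RPS18, of the small subunit head, ranged from 32686 to 41946 normalized counts (median 37244) in the control libraries and from 32774 to 35875 (median 34889) after HCF-1 siRNA. It fell by 0.11 ± 0.039 on the log2 scale (SE, adjusted p = 0.0409), with every HCF-1 siRNA library inside the control range, and the call was lost in 11 of 16 fits that left out 1 library (adjusted p 0.00421 to 0.0778). RPL12 and RPLP0 belong to the stalk. With upper-quartile scaling, which raises the median of all genes from 0.0064 to 0.077, these 6 were no longer called.

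The P stalk is the arm of the large subunit that recruits translation factors, with RPL12 and RPLP0 at its base and RPLP1 and RPLP2 along it. Of the 4, 2 were called lower (18.3% of all genes) and none higher (18.2%). RPL12 ranged from 25193 to 27339 normalized counts (median 26225) in the control libraries and from 23117 to 25465 (median 24463) after HCF-1 siRNA. It fell by 0.11 ± 0.026 on the log2 scale (SE, adjusted p = 0.00226), with 7 of 8 libraries below the control range. RPLP0, often used as a reference gene, ranged from 51791 to 57918 normalized counts (median 55888) in the control libraries and from 47302 to 55328 (median 51367) after HCF-1 siRNA. It fell by 0.11 ± 0.034 on the log2 scale (SE, adjusted p = 0.019), with 5 of 8 libraries below the control range. The tip proteins had the same sign without passing the test. RPLP1 ranged from 17745 to 27537 normalized counts (median 22346) in the control libraries and from 15649 to 23244 (median 19800.2) after HCF-1 siRNA, a log2 fold change of -0.20 ± 0.087 (SE, adjusted p = 0.0836). RPLP2 ranged from 14953 to 16898 normalized counts (median 15733) in the control libraries and from 13921 to 16489 (median 14867) after HCF-1 siRNA, a log2 fold change of -0.086 ± 0.034 (SE, adjusted p = 0.0571). Both were called lower with total-count scaling. Neither was called under either GC adjustment described further on (adjusted p 0.13 and 0.101 for RPLP1, 0.678 and 0.197 for RPLP2). Over all alternatives run, the log2 fold change was -0.25 to -0.13 for RPLP1. For RPLP2 it was -0.11 to 0.057, so its sign was not kept throughout.

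**Figure D2:**
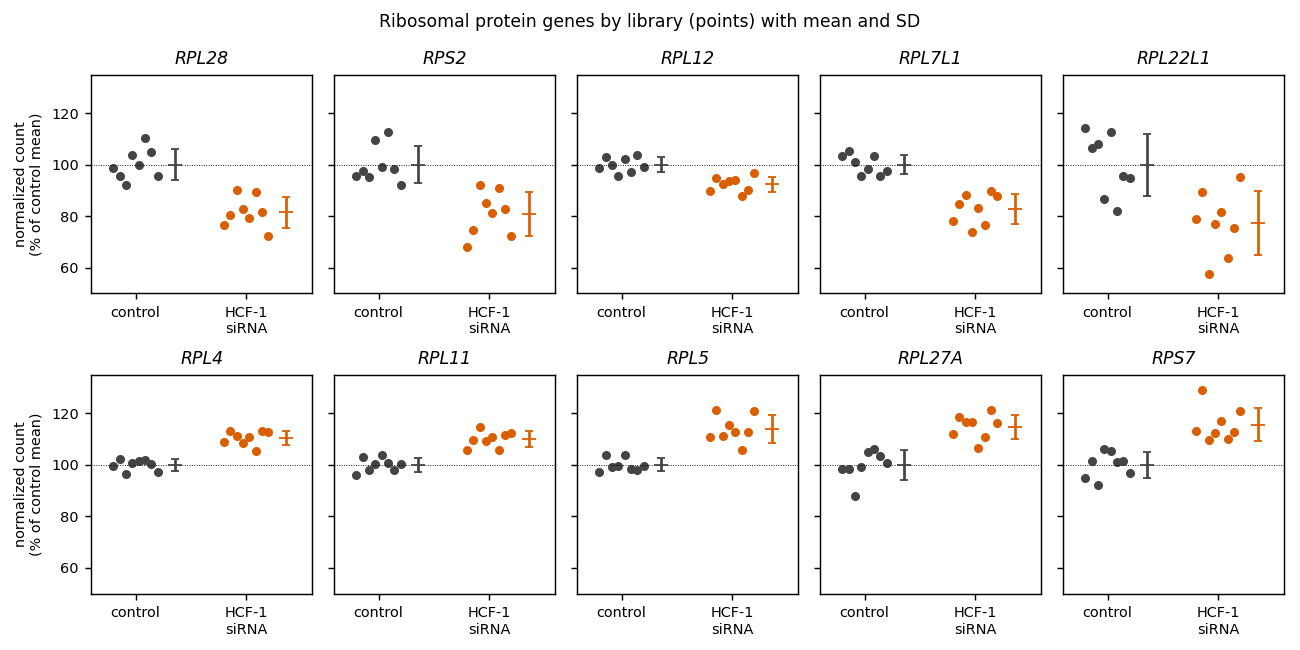
Normalized count of 10 members in each library as percent of the mean of the 8 control libraries (vertical axis, which does not start at 0), with the group mean and SD beside the points. RPL28, RPL7L1, RPL4, RPL11, RPL5, RPL27A and RPS7 show no overlap between the groups, while RPS2, RPL12 and RPL22L1 overlap in part.

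Higher values after HCF-1 siRNA with no overlap between the groups were seen in 4 of 46 large and 1 of 31 small subunit core members. The share over all genes tested was 4.59%, and the subunits were not compared by a test. RPL5 and RPL11 bind the 5S ribosomal RNA and, when free, the p53 regulator MDM2. RPL5 ranged from 29468 to 31530.4 normalized counts (median 30186) in the control libraries and from 32086 to 36836 (median 34232) after HCF-1 siRNA, and it rose by 0.19 ± 0.029 on the log2 scale (SE, adjusted p = 8.29e-05). RPL11 ranged from 17027 to 18423 normalized counts (median 17809.7) in the control libraries and from 18769 to 20346 (median 19581) after HCF-1 siRNA, and it rose by 0.14 ± 0.025 on the log2 scale (SE, adjusted p = 0.000352). Both members of this 5S particle were thus called higher, in 8 of 8 libraries above the control range. Of all genes tested, 18.2% were called higher. RPL4, which lines the exit tunnel inside the large subunit, ranged from 64558 to 68522 normalized counts (median 67350.5) in the control libraries and from 70667 to 75913 (median 74413) after HCF-1 siRNA. It rose by 0.14 ± 0.021 on the log2 scale (SE, adjusted p = 5.23e-05), and it hosts snoRNAs in its introns. RPL27A, a large subunit protein, ranged from 16291 to 19662 normalized counts (median 18487) in the control libraries and from 19738 to 22410.2 (median 21528) after HCF-1 siRNA. It rose by 0.20 ± 0.037 on the log2 scale (SE, adjusted p = 0.000394). The small subunit protein RPS7 ranged from 28042 to 32344 normalized counts (median 30825) in the control libraries and from 33307 to 39234 (median 34360.3) after HCF-1 siRNA. It rose by 0.21 ± 0.037 on the log2 scale (SE, adjusted p = 0.000311), the only small subunit core member among the 31 whose groups did not overlap.

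Proteins at the rim of the exit tunnel contact the growing peptide and the factors that dock there. Of 7, 4 were called higher (RPL17, RPL19, RPL23A, RPL26) and none lower, where 18.2% and 18.3% of all genes were. RPL17 ranged from 20844 to 23353 normalized counts (median 21883) in the control libraries and from 22978 to 27054 (median 25085) after HCF-1 siRNA, and it rose by 0.17 ± 0.035 on the log2 scale (SE, adjusted p = 0.000957). RPL23A, the docking site of the signal recognition particle, ranged from 18775 to 21917 normalized counts (median 20627) in the control libraries and from 21155 to 24907 (median 22706) after HCF-1 siRNA, and it rose by 0.16 ± 0.038 on the log2 scale (SE, adjusted p = 0.0026). RPL26 and RPL19 rose by less, with log2 fold changes of 0.14 ± 0.043 (SE, adjusted p = 0.0133) and 0.094 ± 0.035 (SE, adjusted p = 0.0429). The call of RPL19 was lost in 10 of 16 fits that left out 1 library (adjusted p 0.0134 to 0.0825). RPL39, a short protein inside the tunnel, ranged from 6488 to 7838 normalized counts (median 6895) in the control libraries and from 6545 to 7940.3 (median 7525) after HCF-1 siRNA, a log2 fold change of 0.075 ± 0.048 (SE, adjusted p = 0.238). RPL31 and RPL35 had log2 fold changes of 0.063 and -0.040 and were not called.

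The other core members of the large subunit with the largest increases were RPL21, RPL9, RPL35A and RPL7A. RPL21 ranged from 581 to 869 normalized counts (median 707) in the control libraries and from 715 to 1062 (median 832) after HCF-1 siRNA, and it rose by 0.26 ± 0.092 on the log2 scale (SE, adjusted p = 0.031); reads of its named pseudogenes came to 73.6% of its own, and the call was lost in 6 of 16 fits that left out 1 library (adjusted p 0.0140 to 0.0647). RPL9, which lies near the stalk base, ranged from 6254 to 8709.9 normalized counts (median 8002) in the control libraries and from 7209 to 10793 (median 9609) after HCF-1 siRNA, and it rose by 0.25 ± 0.08 on the log2 scale (SE, adjusted p = 0.0207). RPL35A, mutated in some patients with Diamond-Blackfan anemia, an inherited failure of red cell production, ranged from 9121 to 10048 normalized counts (median 9541) in the control libraries and from 9975 to 11670.3 (median 10758) after HCF-1 siRNA. It rose by 0.17 ± 0.034 on the log2 scale (SE, adjusted p = 0.000823), in 6 of 8 libraries above the control range. RPL7A ranged from 37139 to 41204 normalized counts (median 38824) in the control libraries and from 40994 to 45621 (median 43626) after HCF-1 siRNA, and it rose by 0.15 ± 0.029 on the log2 scale (SE, adjusted p = 0.000415), in 7 of 8 libraries above the control range. Smaller increases were called in RPL34, RPL32, RPL14, RPL6 and RPL7, with log2 fold changes of 0.15, 0.14, 0.13, 0.12 and 0.11. RPL14 lost its call in 6 of 16 fits that left out 1 library (adjusted p 0.00639 to 0.0632). RPL7 was not called under either GC adjustment, at 0.024 (adjusted p = 0.393) and 0.039 (adjusted p = 0.156), and RPL6 was not called under the first, at 0.034 (adjusted p = 0.33).

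In the small subunit, the body held 5 members called higher and 2 lower of 17, and the head 1 higher and 2 lower of 14, against 18.2% higher and 18.3% lower over all genes. The lower counts are near or below that share. RPS15A, a body protein that binds the central domain of 18S rRNA, ranged from 21174 to 25334 normalized counts (median 22409.5) in the control libraries and from 23615 to 29523 (median 27678) after HCF-1 siRNA. It rose by 0.26 ± 0.044 on the log2 scale (SE, adjusted p = 0.000203), the largest increase of the small subunit, with 7 of 8 libraries above the control range. RPS6, the target of the S6 kinases, ranged from 40576 to 45862 normalized counts (median 41852) in the control libraries and from 44359 to 50013 (median 45421) after HCF-1 siRNA. It rose by 0.13 ± 0.033 on the log2 scale (SE, adjusted p = 0.00638), with 3 of 8 libraries above the control range. RPS6 was not called under either GC adjustment described further on, at 0.067 (adjusted p = 0.0904) and 0.039 (adjusted p = 0.322). RPSA, which also serves as the precursor of the laminin receptor, ranged from 33034 to 37109 normalized counts (median 35799.5) in the control libraries and from 35815 to 39610.2 (median 37819.6) after HCF-1 siRNA, and it rose by 0.086 ± 0.03 on the log2 scale (SE, adjusted p = 0.0329). Its call was lost in 6 of 16 fits that left out 1 library (adjusted p 0.0213 to 0.0674), and that of RPS24 (log2 fold change 0.13) in 9 of 16 (adjusted p 0.0136 to 0.0828). RPS27A, made as a fusion to ubiquitin, was the head member called higher. It ranged from 27615 to 30541 normalized counts (median 28689.6) in the control libraries and from 29774 to 36778 (median 32343) after HCF-1 siRNA, and it rose by 0.17 ± 0.039 on the log2 scale (SE, adjusted p = 0.00245).

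Several members with known roles did not pass the test as deposited. Of those given here, RPL10 was called higher under both GC adjustments described further on (adjusted p = 0.000563 and 0.0377). RPL10, which is placed last in the large subunit, ranged from 28593 to 33075 normalized counts (median 32250.3) in the control libraries and from 30319.8 to 35712 (median 32946) after HCF-1 siRNA, a log2 fold change of 0.052 ± 0.04 (SE, adjusted p = 0.331). RPL41, the shortest protein of the ribosome, ranged from 23422 to 29665 normalized counts (median 26662) in the control libraries and from 23893 to 26523 (median 24898) after HCF-1 siRNA, a log2 fold change of -0.090 ± 0.041 (SE, adjusted p = 0.1). RPL38, known for its part in the translation of Hox mRNAs in mice, ranged from 8329.8 to 14586 normalized counts (median 11281) in the control libraries and from 9391 to 14560.3 (median 11344) after HCF-1 siRNA, a log2 fold change of -0.008 ± 0.098 (SE, adjusted p = 0.961). RPS26, at the mRNA exit, ranged from 90.8 to 254 normalized counts (median 151) in the control libraries and from 69.5 to 184 (median 134) after HCF-1 siRNA, a log2 fold change of -0.30 ± 0.22 (SE, adjusted p = 0.306). RPL38 and RPS26 varied more within a group than most members did, with within-group SDs of 0.21 and 0.48 on the log2 scale. Of the 19 members on a list of Diamond-Blackfan anemia genes, 7 were called higher (18.2% of all genes), RPL18 was called lower (18.3%), and the median log2 fold change was 0.13, against 0.0064 over all genes. Over all 77 core members, 23 were called higher and 9 lower, with a median of 0.046. Among genes with a mean of 1000 or more, 23.5% were called higher and 24.4% lower.

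Paralogs were read separately from the core set. Of 7, 5 were tested; 2 were called lower (18.3% of all genes) and none higher (18.2%), with a median log2 fold change of -0.28. RPL7L1, a paralog of RPL7, ranged from 7088 to 7811 normalized counts (median 7391) in the control libraries and from 5486 to 6674 (median 6230.3) after HCF-1 siRNA. It fell by 0.28 ± 0.043 on the log2 scale (SE, adjusted p = 8.29e-05), and the groups did not overlap. RPL22L1, which can take the place of RPL22 and acts in splicing, ranged from 489 to 683 normalized counts (median 603) in the control libraries and from 344 to 568.3 (median 465) after HCF-1 siRNA. It fell by 0.38 ± 0.1 on the log2 scale (SE, adjusted p = 0.00705), with 6 of 8 libraries below the control range. RPL26L1 ranged from 564 to 995 normalized counts (median 645) in the control libraries and from 462 to 819 (median 542) after HCF-1 siRNA, a log2 fold change of -0.28 ± 0.13 (SE, adjusted p = 0.108). RPL36AL, an expressed retrocopy of RPL36A, ranged from 2392 to 2717 normalized counts (median 2525) in the control libraries and from 2294 to 2554 (median 2314) after HCF-1 siRNA, a log2 fold change of -0.090 ± 0.039 (SE, adjusted p = 0.0839). It was called lower under both GC adjustments described further on (adjusted p = 0.0407 and 0.012). RPL3L, known from striated muscle, was near the detection limit, from 6.5 to 27.9 normalized counts (median 17.9) in the control libraries and from 8.69 to 21.1 (median 13.9) after HCF-1 siRNA, a log2 fold change of -0.12 ± 0.29 (SE, adjusted p = 0.78).

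Each paralog was also set against the partner gene in the same library, for the 4 pairs in which the paralog is well expressed. These are ratios of read counts, not corrected for transcript length, and serve to compare libraries. RPL7L1 had 31.6% to 35.5% of the reads of RPL7 in control libraries and 22.6% to 28.9% after HCF-1 siRNA, with no overlap. RPL22L1 had 6.48% to 9.51% of the reads of RPL22 in control libraries and 3.998% to 7.81% after HCF-1 siRNA. RPL26L1 had 3.04% to 6.01% of RPL26, against 2.25% to 4.34%. RPL36AL had 116% to 161% of RPL36A, against 108% to 135.2%. In the last 3 pairs the groups overlapped, and 6 of 8 HCF-1 siRNA libraries lay below every control library. In 3 other pairs the paralog had few reads, and the ranges overlapped with no HCF-1 siRNA library below the control range: the log2 ratio differed by -0.068 for RPL3L to RPL3, by 0.11 for RPL39L to RPL39 and by 0.19 for RPL10L to RPL10. No test was made of these ratios.

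**Figure D3:**
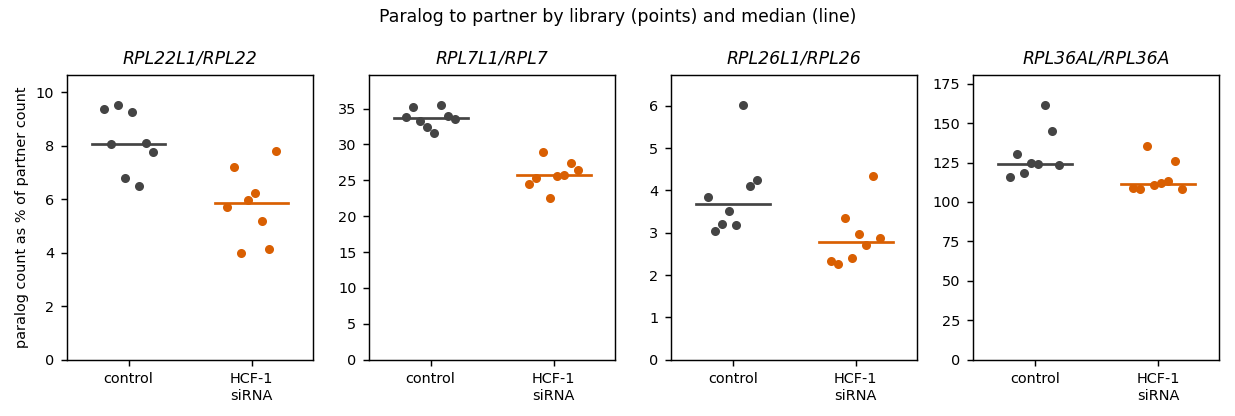
Reads of 4 paralogs as percent of the reads of their partner gene in each library (points) with the group median (line). Of the 4 pairs, RPL7L1 to RPL7 separates the groups, at 31.6% or more in control libraries and 28.9% or less after HCF-1 siRNA.

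Processed pseudogenes are places where reads of this family can go. The table names 854 pseudogenes for 75 of the members. For 77 of 88 members their reads came to less than 1% of the member's own, and for 8 to 5% or more, among them RPL21 (73.6%), RPS23 (40.3%), RPS26 (38.6%), RPL39 (30.2%), RPL3 (17.3%), RPL41 (8.83%) and RPS2 (7.28%). The core members with the fewest reads were RPS26, RPS28 and RPL21, with control means of 162, 414 and 715 normalized counts. The next, RPL36A, was at 1961. How reads that fit several places were counted is not stated, so these genes may hold only part of their reads. This was not tested. The pseudogene RPS2P5 was called lower (log2 fold change -0.33, adjusted p = 0.00852), the sign of RPS2. RPS23P8 was called higher (0.20, adjusted p = 0.0132), while RPS23 itself was at 0.10 ± 0.046 (SE, adjusted p = 0.0979). With the reads of pseudogenes added to each member, 25 members were called higher and 12 lower. The calls gained were RPS23, higher, and RPS26, lower (adjusted p = 0.0439), so the call of RPS26 depends on how these reads are counted. Of the readthrough genes, RPL36A-HNRNPH2 ranged from 168 to 202 normalized counts (median 191) in the control libraries and from 192 to 334 (median 229) after HCF-1 siRNA, and it rose by 0.34 ± 0.099 on the log2 scale (SE, adjusted p = 0.0117). Its exons overlap those of RPL36A, so the assignment of reads between them is uncertain. RPS10-NUDT3 and RPL17-C18orf32 were not called, and the second ranged from 2.63 to 240.5 over all libraries.

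GC content moved with the fold changes. The 26 core members with the lowest transcript GC content (40.1% to 47.9%) held 12 called higher and 1 lower, with a median log2 fold change of 0.11. The 25 in the middle (48.2% to 53.6%) held 10 higher and 2 lower, with a median of 0.058. The 25 with the highest (53.8% to 63.6%) held 1 higher, RPS15A, and 6 lower, with a median of -0.050. Of all genes tested, 18.2% were called higher and 18.3% lower. Among genes with a mean of 1000 or more the shares were 23.5% and 24.4%, and the 6 lower are near these shares. Across the 76 core members the Spearman correlation of log2 fold change with GC content was -0.46, for the large subunit -0.54 (46 genes) and for the small subunit -0.25 (30 genes). Over 15541 tested genes with a matched transcript it was -0.22. These are descriptions across genes that share the same 16 libraries, not tests. The slope of all genes on GC content also moved with the group: it was -0.044 to 0.15 on the log2 scale per 10 GC points in control libraries (median 0.034) and -0.16 to 0.076 after HCF-1 siRNA (median -0.057), with overlap.

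Removing each library's trend over 50 GC bins, an alternative chosen after seeing the data, gave 25 members called higher and 9 lower, of which 18 and 7 were called as deposited. The GC value of a gene depends on which transcript stands for it. The values above use the protein-coding transcript of middle length. A second choice, the principal transcript, was tried after the first result was known, because the middle-length transcript looked unsuited to some members; it gives some very long transcripts in turn, and neither choice is known to be the one these cells use. It changed GC content by up to 13.4 points for a core member (RPL31, 40.1% against 53.6%). With it, 31 members were called higher and 7 lower, of which 22 and 6 were called as deposited. By the calls as deposited, the 3 GC groups then held 12 higher and 1 lower, 9 and 2, and 2 and 6. RPS15A, at 56.2% by the first choice and 48.4% by the second, then lay in the middle group. The 2 called higher in the highest group were RPL19 and RPL32. The shares of all genes were 18.2% and 18.3%, and the correlation was -0.52.

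Under both GC choices, 18 of the 24 members called higher and 5 of the 11 called lower kept their call. Among the 5 were RPS2 (log2 fold change -0.21 with the middle-length and -0.20 with the principal transcript), RPL28 (-0.20 and -0.22), RPL7L1 and RPL22L1. Of those called higher, RPL7 and RPS6 were not called under either choice, and RPL6, RPL14, RPL21 and RPS24 were not called under the first. Of those called lower, RPL8, RPL18 and RPLP0 were not called under either choice. RPS4X was not called under the first, and RPL12 and RPS18 were not called under the second. RPS19, the most frequently mutated gene in Diamond-Blackfan anemia, was at 0.19 ± 0.076 (SE, adjusted p = 0.0617) as deposited and was called higher under both, at 0.26 and 0.27. RPL10, RPL13A, RPL29 and RPS14 were likewise not called as deposited and called higher under both. RPL36AL was not called as deposited and was called lower under both. The order of the subunit medians also depended on the choice: it was 0.041 for the large and 0.054 for the small subunit with the middle-length transcript, and 0.068 and 0.047 with the principal transcript.

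**Figure D4:**
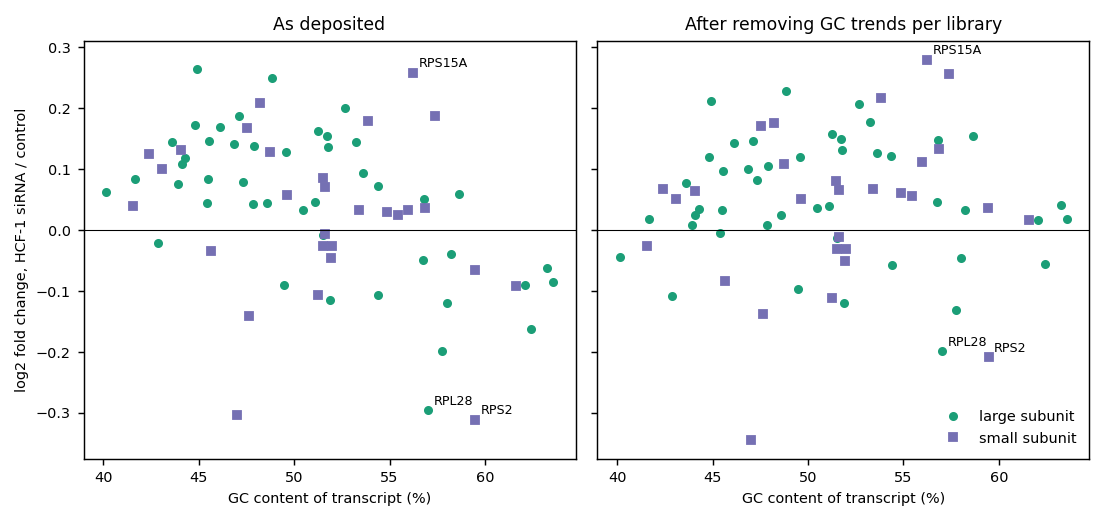
Log2 fold change of core members reported by name (vertical axis) against GC content of the middle-length transcript (horizontal axis), as deposited and after removing each library's GC trend. As deposited, 1 of the 25 members with the highest GC content was called higher and 6 lower, against 18.2% and 18.3% of all genes. RPL28 and RPS2 stay below -0.19 after adjustment.

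Gene position and content were described too. A snoRNA gene lies inside 28 of the core members, of which 9 were called higher and 2 lower, against 14 higher and 7 lower of the 49 without one and 18.2% and 18.3% of all genes. The medians were 0.048 and 0.046. On chromosome 19, a GC-rich chromosome, none of 12 core members was called higher and 3 were called lower, among them RPL28 and RPL18, with a median of -0.024. Over all genes 18.2% were called higher and 18.3% lower.

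Variation within a group was largest for members that moved together across libraries. RPLP1, RPS19, RPL38 and RPL36 were high in control replicate 6 and low in control replicate 3, and RPL9 was low in control replicate 6. Across the 16 libraries, after removing the group means, the correlation of RPLP1 with RPS19 was 0.93 and with RPL9 -0.75. These points share their library and its composition. In control replicate 6 the members took 6.49% of all reads, and in control replicate 3 5.83%, the ends of the range.

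Other genes of the translation machinery were read from lists. FAU codes for RPS30 fused to a ubiquitin-like protein, and its symbol falls outside the family's naming. FAU ranged from 6611 to 8557 normalized counts (median 7718) in the control libraries and from 6174 to 7251 (median 6644) after HCF-1 siRNA, and it fell by 0.20 ± 0.05 on the log2 scale (SE, adjusted p = 0.00374). RACK1, listed under its older symbol GNB2L1 and bound to the small subunit head, ranged from 37014 to 42955 normalized counts (median 40486) in the control libraries and from 33696 to 39192 (median 36734) after HCF-1 siRNA, and it fell by 0.16 ± 0.035 on the log2 scale (SE, adjusted p = 0.00222). With upper-quartile scaling neither FAU nor RACK1 was called. Of 20 other genes of known TOP mRNAs, 7 were called higher and 3 lower, FAU and RACK1 among them, against 18.2% and 18.3% of all genes. The largest increases were in EIF4B, an initiation factor that aids the helicase EIF4A (0.30 ± 0.034 (SE, adjusted p = 3.75e-06)), and EIF3E, a subunit of initiation factor 3 (0.28 ± 0.084 (SE, adjusted p = 0.0144)), on the log2 scale.

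Chaperones and loading factors of ribosomal proteins had 4 of 16 called higher and 5 lower, against 18.2% and 18.3% of all genes. RRS1, which helps load the 5S particle, had a log2 fold change of -0.30 ± 0.053 (SE, adjusted p = 0.000339). TNPO1, a nuclear import receptor, was at 0.26 ± 0.072 (SE, adjusted p = 0.00888), and HEATR3, a carrier of RPL5, was at 0.25 ± 0.067 (SE, adjusted p = 0.00689). Among 15 regulators of TOP mRNA translation, 4 were called higher and 3 lower, against the same shares. RPS6KB2, which codes for an S6 kinase, was at -0.52 ± 0.068 (SE, adjusted p = 1.4e-05), and the TOP-binding proteins TIA1 and TIAL1 were at 0.47 ± 0.065 (SE, adjusted p = 2.67e-05) and 0.35 ± 0.11 (SE, adjusted p = 0.0204). RPS6KB1, which codes for another S6 kinase, was called in the other direction, at 0.25 ± 0.078 (SE, adjusted p = 0.0192). Of 78 mitochondrial ribosomal protein genes, which build a separate ribosome, 11 were called higher (18.2% of all genes) and 24 lower (18.3%), with a median log2 fold change of -0.062. MRPL55, MRPS12 and MRPL41 had the largest decreases, with log2 fold changes of -0.56, -0.53 and -0.47. No test compared this family with the cytosolic one.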

How the data were processed

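RNA from 16 HepG2 cultures, 8 with HCF-1 siRNA and 8 with control siRNA, was sequenced as stranded poly(A) libraries, per the labels' protocols. The deposited values are a signal per gene: gene counts that the authors divided by 1 size factor per library. The submitters' processing notes list DESeq2 (1.16.1), featureCounts (1.4.4), STAR (2.4.1d) and cutadapt (1.4.2), and hg19 as the build. For the annotation release, the strand setting and reads that fit several places, the sources used here give nothing. Whole reads were recovered from the deposited values for 100% of them within 0.05 of a read.

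Genes with a mean of 10 or more were tested with limma 3.58.1 (R 4.3.3; lmFit, eBayes with trend and robust) on log2(value + 1). P-values were Benjamini-Hochberg adjusted over all 16081 genes, and genes under 0.05 are called. A fold change is on that scale. Leaving out each library, the scaling, the pseudocount (0.5 or 10), the filter (none or 50), array weights, a replicate block and count tests on the recovered reads (edgeR 4.0.16, DESeq2 1.42.0) were alternatives; DESeq2 called 26 members higher and 12 lower, and edgeR 22 and 12. The fit was tested on simulated data.

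Transcript length, GC content and snoRNAs are from GENCODE v29, matched by gene ID for 96.6% of tested genes. Promoters are from RefSeq. Every member may be named; values by library are given for members called lower, the 12 largest increases, members with a role the text orders by, and paralogs, and for other lists up to 3 called genes of largest change. RPS6KB1 was given in addition, beside RPS6KB2. Members and lists were chosen with earlier results of these data known. The GC adjustments were added after the data were seen, and the second transcript choice after the first GC-adjusted result. Some genes are counted in the totals but not reported here by name.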

Additional observations from a re-analysis of the deposited data

Results flagged for a closer look

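For 8 of 184 groups of 8 libraries, 1 library stood far from the other 7; chance flags about 1 in 20 groups. HCF-1 siRNA replicate 3 was the highest of its group for RPLP2 (16489 normalized counts, the others 13921 to 15108), RPL29 (23458, the others 20942 to 22071) and RPL19 (44380.0, the others 39961 to 41763). HCF-1 siRNA replicate 7 was the highest for RPL36 (9153, the others 5608 to 6572), RPL31 (20780.4, the others 18083 to 19017) and RPL22 (10865, the others 7280 to 8600). Control replicate 5 was the highest for RPL27 (19971, the others 17516 to 18518), and control replicate 3 the lowest for RPL27A (16291, the others 18182 to 19662).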

How the results depend on the processing

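Of the 35 members called, 20 kept their call in every alternative that was run, and none was called in the opposite direction. With upper-quartile scaling 4 members were called lower, 1 of them in the large and 1 in the small subunit core set, and the large subunit median was 0.1391. With total-count scaling 9 large subunit core members were called lower. After GC adjustment it was 2 with the middle-length transcript and 1 with the principal transcript, where 7 members in all were lower; the second transcript choice was made after the first result was seen. Leaving out 1 library gave 19 to 26 members higher, 9 to 15 lower, 5 to 8 lower large subunit and 2 to 4 lower small subunit core members. The cause of these shifts was not tested. Same-numbered libraries of the groups did not deviate together (correlations -0.074 to 0.098), and only replicate 6 correlated best with its own number. With the replicate block, 22 members were higher and 10 lower, and 5484 genes were called in all against 5879 without it. The libraries are deep, so depth limits mainly the low members such as RPL3L, RPL10L and RPL39L.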
